A study of Homo sapiens with 2 samples.

Results

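Replication-dependent histone genes encode the histones that package newly made DNA. They were taken as all transcript probes whose array gene name begins with HIST1H, HIST2H, HIST3H or HIST4H, which gave 64 genes and 85 probes among the 30484 gene names and 41000 probes of the array. SAS cells are a human tongue squamous cell carcinoma line, and eSAS cells are the population left after SAS cells had passed through 5 rounds of selection for large spheroids on a removable filter. According to the labels both populations were grown in DMEM with fetal bovine serum, and neither was treated with a drug. Total RNA of each (200 ng) was copied from oligo-dT primers, labelled with Cy3 and hybridised to 1 array per population, with both arrays on 1 slide. Without replicate arrays no test was made and no p-value is given, and all differences describe this pair of arrays.

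Histones H2A, H2B, H3 and H4 form the core of the nucleosome, and H1 binds the DNA between nucleosomes. Their mRNAs are made mainly in S phase, when DNA is copied, and they normally end in a stem-loop rather than a poly(A) tail. NPAT drives their transcription, and SLBP binds the stem-loop. Human genes of this kind lie in a large cluster on chromosome 6 (HIST1) and in smaller groups on chromosomes 1 (HIST2 and HIST3) and 12 (HIST4), and many H2A and H2B genes sit head to head around a shared promoter. Since copies of a class are nearly alike in sequence, a probe can bind transcripts of several of them, and the members are not independent measurements. How far the oligo-dT primer reached mRNAs without a poly(A) tail was not tested.

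The promoters that these genes share are shown first, with 1 example per class from genes described later. Each window runs from 250 bases before to 50 bases after the gene's start in RefSeq, GRCh38.p14. RefSeq windows were found for 59 of the 64 genes (63 windows, since some genes have several starts), and HIST1H2AH, HIST1H3I, HIST1H3J, HIST1H4A and HIST1H4C were not among them. Capitals mark matches, on either strand, to the TATA box TATAAA, the CCAAT box CCAAT, the octamer ATTTGCAT, the H1 box AAACACA and the H4 element GGTCCG. In the HIST2H2BE window a match to the H4 element on the opposite strand overlaps a CCAAT box. The windows are HIST1H1A (H1-1), chr6:26017738-26018037, minus strand, HIST1H2AC (H2AC6), chr6:26123922-26124221, plus strand, HIST2H2BE (H2BC21), chr1:149886633-149886932, minus strand, HIST2H3A (H3C15), chr1:149852358-149852657, plus strand, and HIST1H4L (H4C13), chr6:27873485-27873784, minus strand.
HIST1H1A promoter: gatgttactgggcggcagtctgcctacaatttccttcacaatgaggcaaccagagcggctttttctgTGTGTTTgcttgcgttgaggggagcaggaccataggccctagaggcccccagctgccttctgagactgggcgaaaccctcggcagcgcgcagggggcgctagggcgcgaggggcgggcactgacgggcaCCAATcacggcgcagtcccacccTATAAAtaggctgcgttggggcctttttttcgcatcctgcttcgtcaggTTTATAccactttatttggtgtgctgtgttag
HIST1H2AC promoter: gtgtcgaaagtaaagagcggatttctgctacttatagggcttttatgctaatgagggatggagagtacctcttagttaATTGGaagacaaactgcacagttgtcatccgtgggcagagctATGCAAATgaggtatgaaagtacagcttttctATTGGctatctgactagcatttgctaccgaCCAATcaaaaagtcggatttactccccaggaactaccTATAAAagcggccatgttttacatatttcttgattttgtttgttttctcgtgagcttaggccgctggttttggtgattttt
HIST2H2BE promoter: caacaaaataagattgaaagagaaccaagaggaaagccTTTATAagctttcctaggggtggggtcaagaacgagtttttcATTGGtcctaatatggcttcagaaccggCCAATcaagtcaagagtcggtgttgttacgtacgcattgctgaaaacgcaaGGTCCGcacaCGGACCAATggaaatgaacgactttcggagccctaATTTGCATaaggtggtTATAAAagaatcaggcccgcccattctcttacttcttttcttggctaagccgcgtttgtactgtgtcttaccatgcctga
HIST2H3A promoter: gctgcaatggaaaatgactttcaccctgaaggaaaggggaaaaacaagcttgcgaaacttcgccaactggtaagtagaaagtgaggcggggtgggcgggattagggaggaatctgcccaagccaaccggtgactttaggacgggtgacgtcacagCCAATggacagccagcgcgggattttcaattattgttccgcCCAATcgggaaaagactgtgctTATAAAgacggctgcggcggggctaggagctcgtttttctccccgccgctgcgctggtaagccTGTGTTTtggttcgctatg
HIST1H4L promoter: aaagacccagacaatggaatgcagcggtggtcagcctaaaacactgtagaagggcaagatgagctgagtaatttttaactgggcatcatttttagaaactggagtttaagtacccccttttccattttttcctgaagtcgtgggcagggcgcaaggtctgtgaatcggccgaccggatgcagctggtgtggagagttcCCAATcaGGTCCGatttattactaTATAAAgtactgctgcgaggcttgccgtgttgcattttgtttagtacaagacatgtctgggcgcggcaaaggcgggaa

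TATAAA was present in 42 of 63 histone windows (66.7%), against 11.5% of the 35116 RefSeq promoter windows of the same length. CCAAT was present in 54 (85.7%), against 34.6%. It was in every H1, H2A, H2B and H3 window but in only 3 of 12 H4 windows. The octamer, a site read by POU-domain factors, was in 26 windows (41.3%), against 1.77% of all promoters. It was found in 14 of 19 H2B windows and 11 of 14 H2A windows, and in 1 of 12 H3 windows and no H1 or H4 window. That H3 window belongs to another start of HIST1H3D and is the same stretch as the HIST1H2AD window, which is also counted in H2A. AAACACA was in 6 of 6 H1 windows and 8 of 63 overall (12.7%), against 5.64%. GGTCCG was in 11 of 12 H4 windows and 14 of 63 overall (22.2%), against 11.3%. The H2A and H2B counts are not independent, because the windows of 10 head-to-head pairs shared 253 to 293 bases. In addition, HIST1H2BD and HIST1H2BK each gave nearly identical windows that were counted separately. A match describes the letters of a window and not a bound site.

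Nearly all of these genes gave signal in both cell populations. Of the 85 probes, 75 (88.2%) were well above background on both arrays and 10 on neither, while 65.3% of all probes were well above background on both. The scanner software makes this call for each spot against its background. One of the 75, a probe of HIST1H2BD on the opposite strand, had a spot that the software marked as non-uniform on the SAS array. Its signals were 4990 in SAS and 5699 in eSAS, and it was left out. The remaining 74 probes of 60 genes gave the values below. All 16 probes for H3 were measured, as were 21 of 23 for H2A, 13 of 15 for H4 and 5 of 6 for H1. For H2B, 20 of 25 were well above background and 19 were used. The 4 genes without a value were HIST1H1T, HIST1H2BA, HIST1H2BK and HIST1H4G. Among them HIST1H1T and HIST1H2BA are variants known from the testis. HIST1H1T had signals of 3.80 and 4.40 on the SAS and eSAS arrays, and HIST1H2BA had 15.2 and 10.5, not well above background on either.

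Both arrays were similar in range. The 75th percentile of the 43376 transcript spots was 1242 for SAS and 1196 for eSAS, 69.4% and 67.5% of the spots were well above background, and none was saturated. Each signal is given as deposited, and each log2 ratio is the eSAS value minus the SAS value after both were set relative to these percentiles. Squamous epithelial markers were measured for 9 of 9 genes, with a median log2 ratio of -0.48 and 8 below 0. Of these, 3 were at least 1.5-fold lower in eSAS, against 4.99% of all genes, namely KRT14, KRT5 (-0.63) and SFN (-0.59), named after their values were seen. The KRT14 probes were at -6.58 and -1.23. Of the markers of other cell types, 1 of 4 for leukocytes (CD14), 1 of 3 for endothelium (VWF), 0 of 5 for testis and 0 of 5 for fibroblasts were well above background on both arrays. COL1A1 and CDH5 were so in SAS only, and LUM in eSAS only.

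Histone signals were nearly the same in SAS and eSAS cells, with a small and common shift to lower values in eSAS. The median log2 ratio over the 74 probes was -0.09, or 1.07-fold lower in eSAS, with a range from -0.38 to 1.02. Over 26659 probes of all genes it was -0.0039. Of the 74 histone probes, 60 had a ratio below 0 (81.1%), against 50.8% of all probes. Counted by gene, 48 of 60 (80.0%) lay below 0, against 50.2% of 19467 genes. The ratio stayed within 0.2 of 0 for 64 of the 74 probes, against 16993 of all 26659 probes and 8010 of the 10479 with a mean signal of at least 1000. Fewer cells in S phase and less histone mRNA per cell cannot be told apart in bulk RNA, and neither these nor other causes of the shift were tested. The size of the shift depended on the background correction, since with normexp the gene median relative to all genes was -1.17 in place of -0.09, and it was again -0.09 when spots of marked local background were kept out of the normexp fit.

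**Figure D1:**
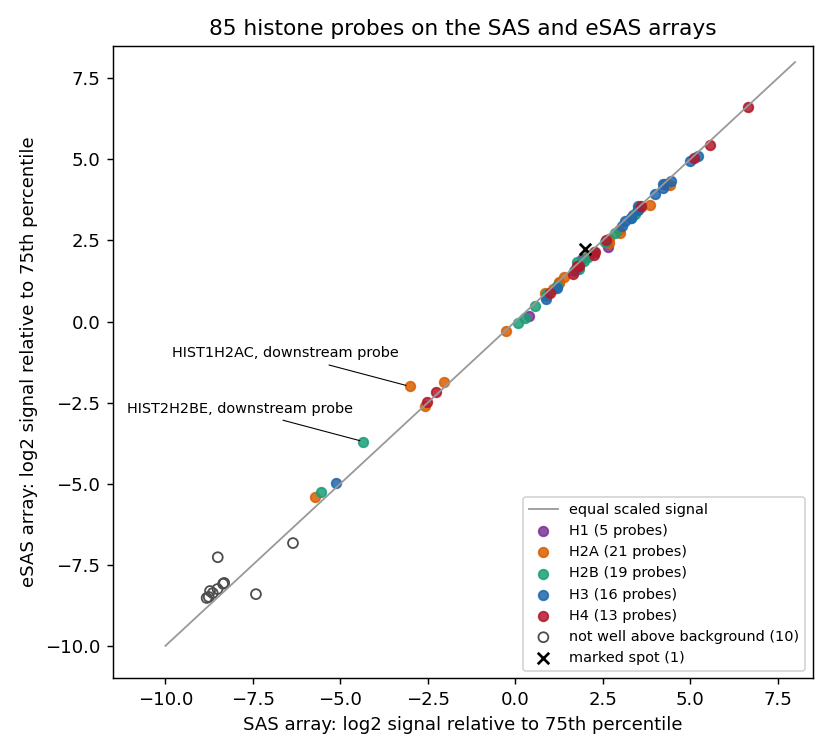
Scaled log2 signal of each of the 85 histone probes on the SAS array (x axis) and the eSAS array (y axis), relative to the 75th percentile of each array. Most of the 74 coloured points lie on or just under the line of equal signal, the HIST1H2AC and HIST2H2BE downstream probes lie above it at low signal, and the 10 open circles were not well above background on either array.

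Few members passed a fold limit. At least 1.5-fold higher in eSAS were 2 of the 74 probes, against 4.43% of the 28439 probes that either array measured above background, and none was at least 1.5-fold lower, against 6.12%. At least 2-fold higher was 1 probe, against 1.83%, and none was at least 2-fold lower, against 1.97%. By gene, 0 of 60 were at least 1.5-fold apart in either direction, against 8.18% of all genes. The 2 probes past 1.5-fold, of HIST1H2AC and HIST2H2BE, were averaged there with a lower probe of the same gene. The SD of the log2 ratio was 0.14 over the 60 histone genes and 0.37 over all genes. The shares and SD of all probes and genes were not matched for brightness. Among probes with a mean signal of at least 1000 the SD was 0.078 for 65 histone probes and 0.23 for all 10479. Percentiles 5 and 95 of these 10479 probes were -0.41 and 0.29, both within 1.5-fold.

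The size of the shift can be set against the spread within the arrays. Probes spotted several times had a SD of 0.078 between their spots (211 probes). Of the 74 histone probes, 49 differed by more than that, 42 of them lower and 7 higher in eSAS. Over all 26659 probes, percentiles 25 and 75 were -0.15 and 0.13, so differences beyond 0.078 were common on the array. The count of 49 is therefore not shown to be particular to the histone probes. The software's modelled error of a ratio was larger, with a median of 0.20. Beyond their own modelled error were 9 histone probes, 6 lower and 3 higher. The shares of all probes beyond these measures were not counted. Neither measure holds the spread between cultures. The shift of a single histone gene was therefore mostly within the modelled error, while its direction was shared by most members.

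The direction differed with the brightness of the probe. Among the 65 histone probes with a mean signal (geometric mean of both arrays) of at least 1000, 59 (90.8%) lay below 0, with a median of -0.11 and a range from -0.38 to 0.066. Over the 10479 probes of all genes at that brightness 52.1% lay below 0, and the median was -0.0074. Between 1000 and 5000 the histone median was -0.09 over 28 probes and that of all 6133 probes was 9.85e-05. Between 5000 and 20000 it was -0.11 over 25 probes and -0.0083 over 2751. From 20000 upward it was -0.09 over 12 probes and -0.03 over 1595. Of the 9 dimmer histone probes, 8 lay above 0 with a median of 0.19, whereas the 16180 dimmer probes of all genes had a median of -0.00018. These 9 include the 4 measured downstream probes described below.

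All 5 classes had a median below 0. For H1 it was -0.13 over 5 genes, for H2B -0.11 over 15, for H3 -0.09 over 12, for H4 -0.09 over 13 and for H2A -0.04 over 15. The medians of the 5 classes thus lay within 0.1 of each other, while genes within a class ranged more widely, from -0.27 to 0.50 in H2A and from -0.38 to 0.020 in H1. Below 0 were 4 of 5 H1 genes, 11 of 15 H2A genes, 13 of 15 H2B genes, 9 of 12 H3 genes and 11 of 13 H4 genes.

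**Figure D2:**
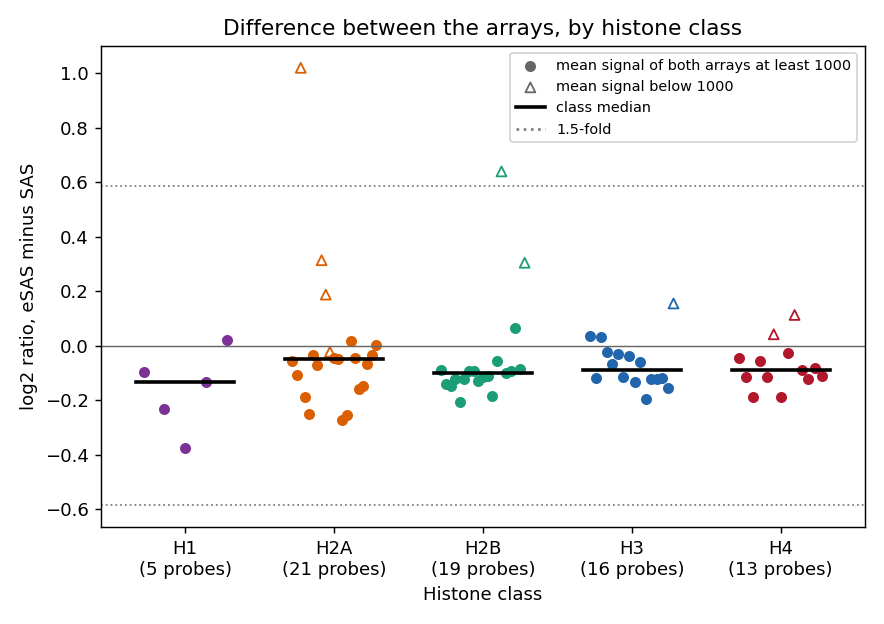
Log2 ratio (eSAS minus SAS) of the 74 measured histone probes by class, where each point is a probe, bars are class medians over probes and dotted lines mark 1.5-fold. The class medians lie between -0.13 and -0.05, filled points (mean signal of at least 1000) lie mostly just below 0, and open triangles (dimmer probes) lie mostly above it.

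Linker histone H1 held the member with the lowest ratio. HIST1H1A, which encodes the H1.1 linker histone, gave a signal of 7884 in SAS and 5850 in eSAS, a log2 ratio of -0.38 (1.30-fold lower, modelled error 0.20). HIST1H1B, for H1.5, had 1635 and 1341, a ratio of -0.23. The other members of the class were closer to equal. HIST1H1C, for H1.2, had the largest H1 signal on the SAS array, 12837 against 11574 in eSAS (-0.09). HIST1H1E had 4220 and 3703 (-0.13). HIST1H1D was the only H1 gene above 0, with 4702 and 4591 (0.020).

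Among the core histones the lowest values were in H2A. HIST1H2AH had 9919 in SAS and 7903 in eSAS (-0.27, 1.21-fold lower), and HIST1H2AK had 17891 and 14441 (-0.25). HIST1H2AJ, named for the largest SAS signal of its class, was measured by 2 probes, with 26454 and 22360 (-0.19) and with 9705 and 8386 (-0.16). These genes were the H2A members with the lowest ratios, and the pair of HIST1H2AJ probes gave nearly the same value. HIST1H2AL was above 0 with 301 and 330 (0.19), and HIST1H2AA with 23.7 and 28.4 (0.31, modelled error 0.31). Both of these were dim.

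In H2B, the core partner of H2A, HIST1H2BF had the largest SAS signal, 13419 against 11820 in eSAS (-0.13). In H3, whose tail carries many of the best known histone marks, HIST1H3J was lowest with 2294 and 1932 (-0.19). HIST2H3A gave -0.12 by both of its probes, with signals of 46614 and 41330 for the first and 12328 and 10950 for the second. The largest H4 signal was that of HIST1H4C, 125472 in SAS and 117046 in eSAS (-0.05). HIST1H4L had 58654 and 51978 (-0.12). HIST1H4A, which was dim, had 257 and 268 (0.11). Signals of different probes depend on the probe as well as on the transcript, so they do not rank the genes.

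Medians of the longer HIST1 stretches and of HIST2 lay close together. HIST1 held 54 genes and 66 probes between 25834542 and 27969626 on chromosome 6 (hg18), and 41 of its 50 measured genes lay below 0, with a median of -0.09. Where neighbouring members lay more than 200 kb apart the cluster was divided, which gave 4 stretches. In the stretch chr6:26125330-26393535 the median was -0.09 over 30 genes, in chr6:27201267-27223284 it was -0.10 over 4, and in chr6:27883265-27969626 it was -0.11 over 15, of which 14 were below 0. The stretch chr6:25834542-25835220 held HIST1H2AA alone as a measured gene. The HIST2 group, chr1:148071020-148125868, had a median of -0.10 over 6 genes, 5 of them below 0.

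In the HIST3 group, chr1:226679269-226714218, the median was -0.02 over 3 genes, 2 of them below 0. HIST3H2A, on chromosome 1, had 24527 in SAS and 21957 in eSAS (-0.11). HIST3H3, known from the testis as H3t, had 39296 and 37250 (-0.02). HIST3H2BB, whose 3 probes are given with the downstream probes, had a gene value of 0.06. That value averages an upstream probe at -0.21, an opposite-strand probe at 0.066 and a dim downstream probe at 0.30. With its upstream probe alone, all 3 genes of the group lay below 0. HIST4H4, on chromosome 12, had 215 and 214 (0.04). Whether the HIST3H3 signal comes from its own transcript or from other H3 copies was not tested. Other probes on the same chromosomes showed no such shift as a whole, with a median of 0.0066 over 1428 measured probes on chromosome 6 and 0.0018 over 2708 on chromosome 1, histone probes included. The 38 other probes that lay between the ends of HIST1 had a median of -0.08, 23 of them below 0, with a range from -1.12 to 0.48. The 3 other probes between the ends of HIST2 had a median of 0.33, 1 of them below 0.

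**Figure D3:**
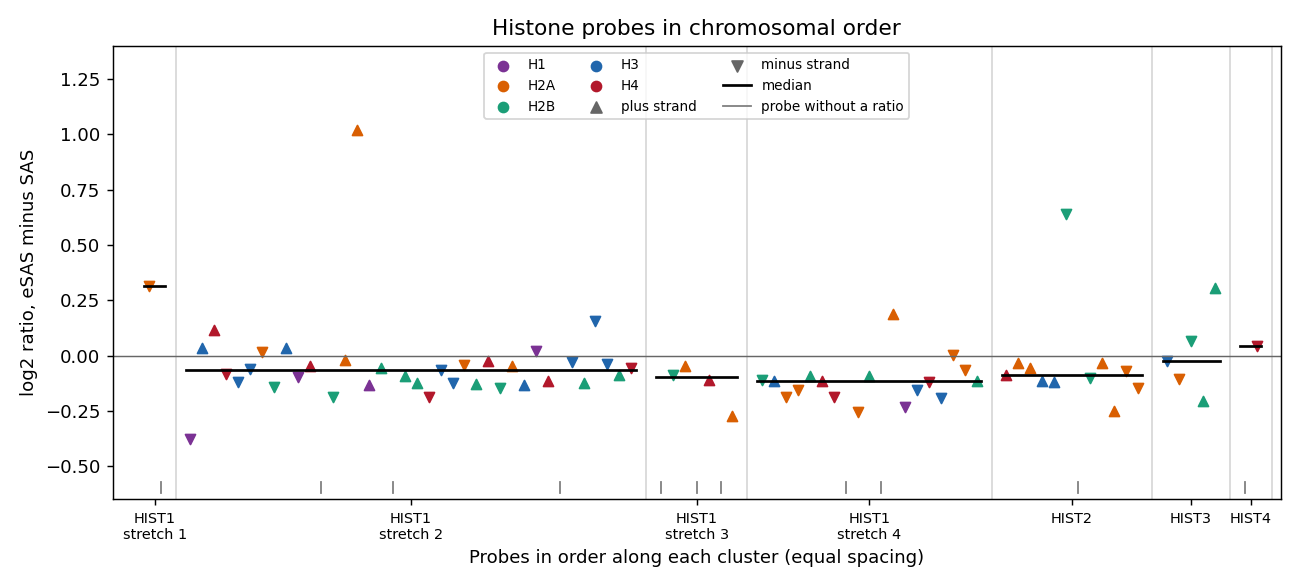
Log2 ratio (eSAS minus SAS) of histone probes in their order along each cluster, with equal spacing, coloured by class, pointing up for the plus strand and down for the minus strand, with a line at each group's median. Medians of the 3 longer HIST1 stretches and of HIST2 lie slightly below 0 with classes and strands intermixed, and grey ticks at the bottom mark the 11 probes without a ratio.

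Head-to-head H2A and H2B genes gave similar ratios. Of 11 such pairs, defined by probes at most 2000 bases apart on opposite strands, 9 had both genes measured, and in all 9 both partners lay below 0 where the probe nearest the shared promoter was used. Partners differed by 0.04 to 0.16, with a median of 0.08, close to the SD of replicate spots. HIST1H2BC and HIST1H2AC, whose shared promoter is printed above, differed most, at -0.19 and -0.02. HIST2H2BE and HIST2H2AC were at -0.10 and -0.03. Since 81.1% of all histone probes lay below 0, a shared sign is not particular to these pairs. The SD over the 65 histone probes with a mean signal of at least 1000 was 0.078. Small differences between partners are thus not shown to be particular to them either, and pairs were not tested against other members.

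The members above 1.5-fold were both measured by probes that lie downstream of the gene's other probe. HIST1H2AC encodes an H2A protein. Its upstream probe had 209 in SAS and 198 in eSAS, a log2 ratio of -0.02. Its downstream probe, 14419 bases further on the same strand at chr6:26246801-26246860 (hg18), had 153 and 299, a ratio of 1.02 (2.03-fold higher, modelled error 0.21). Without background correction this ratio was 0.84, and without scaling it was 0.97, both under 2-fold. HIST2H2BE encodes an H2B protein. Its upstream probe had 2836 and 2547 (-0.10), and the probe 1616 bases downstream, at chr1:148123038-148123097, had 61.2 and 91.9, a ratio of 0.64 (1.56-fold higher, modelled error 0.22). Without background correction this ratio was 0.44, under 1.5-fold. The HIST2H2BE probe between them was not well above background. Averaged over probes the genes had 0.50 and 0.27, values that stand for neither probe.

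The same arrangement was then looked for in all members, a choice made after these values were seen. Probes at least 900 bases downstream of another probe of their gene numbered 10, from 9 genes. Of these, 6 were not well above background on either array. The other 4 all lay above 0, while the upstream probes of the same genes lay below 0. All 4 were among the 9 dimmer histone probes, of which 8 lay above 0. Dim probes that were not downstream also lay above 0 in HIST4H4 (0.04), HIST1H4A (0.11), HIST1H2AL (0.19) and HIST1H2AA (0.31). The dim upstream probe of HIST1H2AC did not (-0.02). Position and brightness can therefore not be told apart over these 4 genes. HIST3H2BB had 26.5 and 31.5 downstream (0.30, modelled error 0.33), and 4376 and 3655 at its upstream probe (-0.21). The HIST3H2BB probe on the opposite strand had 4259 and 4292 (0.066). HIST1H3G had 35.7 and 38.3 downstream (0.16, modelled error 0.29), and 14271 and 13378 upstream (-0.04). The downstream ratios of HIST3H2BB and HIST1H3G were within their modelled error. The upstream HIST3H2BB ratio (-0.2053) was just beyond its own (0.2040).

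**Figure D4:**
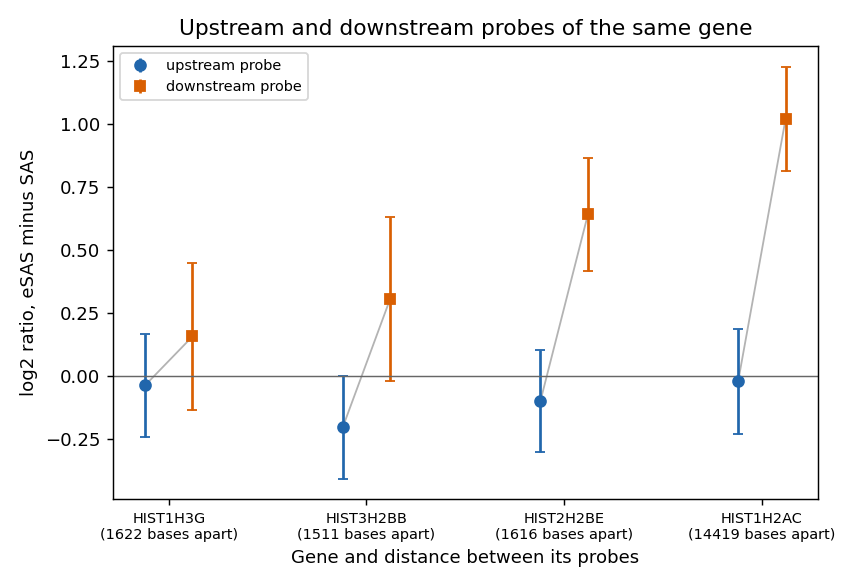
Log2 ratio (eSAS minus SAS) of the upstream probe (circle) and the downstream probe (square) of the 4 histone genes in which both were measured, with the software's modelled error as bars and the distance between probes under each name. The downstream probe is above 0 and the upstream probe below 0 in each gene, and the bars of the pair overlap in HIST1H3G and HIST3H2BB but not in HIST2H2BE or HIST1H2AC. All 4 downstream probes are dim, as is the upstream probe of HIST1H2AC.

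Of these 4 downstream spots, 3 lay in rows 450 to 510 of the array, a band that was left out as an alternative, namely those of HIST1H2AC, HIST3H2BB and HIST1H3G. Among dimmer probes of all genes in those rows the median ratio was 0.0069 and 2.05% were at least 2-fold higher in eSAS, compared with -0.0011 and 1.33% outside them. The 8 spots nearest to that of HIST1H2AC had a median of 0.11 and ranged from -0.46 to 0.83. Its pixel SD over mean was 0.15 on the SAS array, where spots of like brightness had a median of 0.18, and 0.16 on the eSAS array, against 0.15. The part of the spot's position in this value was not tested. The HIST2H2BE spot lay outside those rows, in row 427, and the 8 spots nearest to it had a median of -0.0076. Over all members, the 11 probes inside those rows had a median of -0.07 and the 63 outside had -0.09.

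Probes of other histone genes mostly gave similar values. Over all 13 histone genes with several measured probes, the median range between probes was 0.070, against 0.14 over 5334 such genes of the array. Measured probes overlapped in HIST1H3B, HIST1H3D, HIST2H2AB, HIST2H2AC and HIST3H2BB. The comparison was not matched for the distance between probes or for brightness. At least 0.5 apart were 3 (23.1%), which were HIST1H2AC, HIST2H2BE and HIST3H2BB, against 7.71% of all genes. HIST2H2AC had overlapping probes at -0.03 and -0.25, with signals of 24142 and 22719 for the first and 7923 and 6421 for the second.

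Genes that make, escort or replace these histones were compared next. Of 18 measured genes for histone mRNA transcription and processing, none was at least 1.5-fold apart, against 8.18% of all genes, and the median was 0.0085. SLBP had 18525 in SAS and 18610 in eSAS (0.06). CASP8AP2, or FLASH, which acts in histone mRNA processing, had 1178 and 1131 (-0.0044). NPAT had 240 and 201 by the first probe (-0.20) and 425 and 364 by the second (-0.17). SLBP and NPAT thus lay on opposite sides of 0.

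Histone chaperones, which carry histones to DNA, had a median of -0.08 over 16 genes, with 13 below 0, close to the -0.09 and the 48 of 60 of the histone genes themselves. At least 1.5-fold lower was 1, against 4.99% of all genes, namely ATRX, a chromatin remodeller that acts with DAXX on H3.3, at -0.81 by gene and -0.82, -0.75 and -0.85 by its 3 probes. Replacement histones are made outside S phase as well. Of the 13 on the array 11 were measured, and their median was -0.06. H2AFX, which encodes the H2AX of DNA damage foci, had 17008 and 15756 (-0.06). At least 1.5-fold lower was H2AFY2, which encodes macroH2A2, with 443 and 181 (-1.23, 2.35-fold lower). With normexp background correction in place of the deposited one, ATRX and H2AFY2 had ratios above 0, at 0.31 and 0.35, where the median of all probes was 0.53. With spots of marked local background kept out of that fit they were at -0.66 and -1.04.

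The 25 S phase genes had a median of 0.02, and 15 of them lay above 0, against 9685 of all 19467 genes. At least 1.5-fold lower was 1, POLA1, the catalytic subunit of DNA polymerase alpha, with 5344 and 2957 (-0.80). The S phase median was smaller than the SD of replicate spots (0.078), which does not measure the spread of a list median. Whether the list has a direction was not tested. Relative to all genes the S phase median was 0.02, and it was -0.0028 without background correction. With normexp it was -1.10, where the histone genes had -1.17. ATRX and POLA1 lie on the X chromosome, whose 823 measured probes had a median of -0.51.

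**Figure D5:**
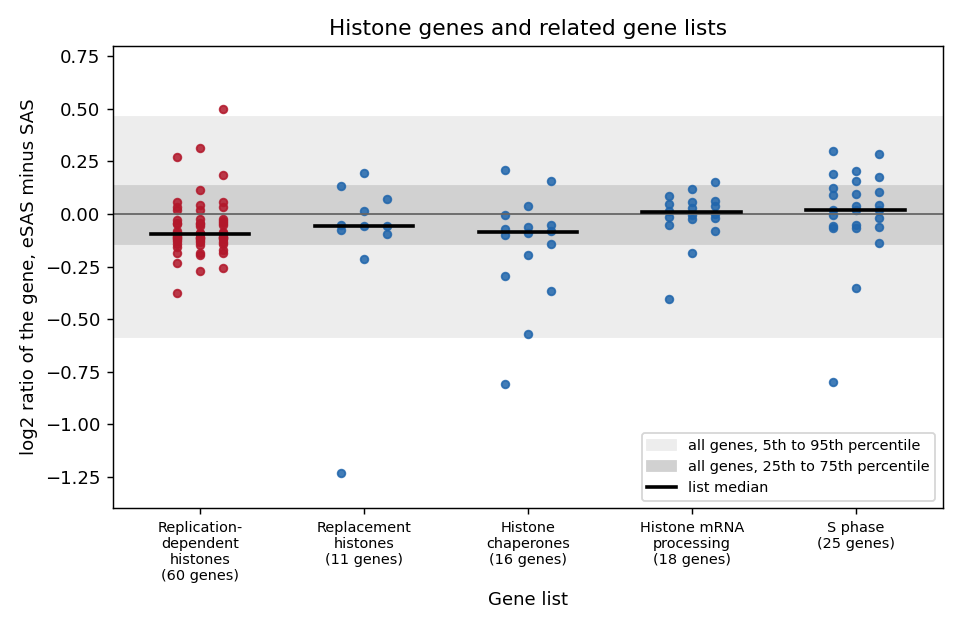
Log2 ratio per gene (eSAS minus SAS) for the 60 measured replication-dependent histone genes and 4 related lists, where points are genes, bars are list medians and the grey bands span percentiles 25 to 75 and 5 to 95 of all 19467 measured genes. The histone median is -0.09 and the list medians run from -0.08 to 0.02, with H2AFY2, ATRX and POLA1 below the lower band.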

How the data were processed

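RNA of each population was hybridised to 1 Agilent 1-colour array. The authors deposited the intensity values of Agilent Feature Extraction 10.7.3.1, linear and corrected for background and spatial trends within the array but not scaled between arrays. Their table of the whole series equalled the processed signal for all 43376 spots. The scaling behind the authors' fold changes is not given in the sources used here.

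From there, the processed signal of each spot was divided by its array's 75th percentile, and log2 was taken. Control spots and spots marked as non-uniform or population outliers were left out, and replicate spots were averaged. A probe not well above background on 1 array was held there at no less than the array's lowest signal well above background (12.8 for SAS, 15.2 for eSAS). Gene values are means over probes well above background on both arrays. The 64 members were matched to current symbols by RefSeq accession. Probe positions are in hg18 and promoter windows in GRCh38.p14.

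Members and lists were chosen with earlier results of these data known. Named genes were those with a probe at least 1.5-fold apart, the 5 highest and 5 lowest genes, the largest SAS signal per class, HIST3 and HIST4 genes, testis histones, the 3 genes whose probes disagreed most, SLBP, NPAT, CASP8AP2, H2AFX and list genes at least 1.5-fold apart. The other genes with values (HIST1H1D, HIST1H1E, HIST1H2BC, HIST1H2BD, HIST1H3G, HIST1H4L, HIST2H2AC, CSTF2 and RBBP7) were picked with their values in view, as were the limits of 900 bases and 0.5 and the bounds of brightness. Calculations used Python 3.11.15, pandas 2.3.3, numpy 2.4.6 and R 4.3.3 with limma 3.58.1, and were tested on simulated data. Alternatives were no scaling, median centring, quantile normalization, normexp with an offset of 50 on mean or median pixels, no background correction, the series table, marked spots kept, other filters on dim probes, rows 450 to 510 left out, and genes in place of probes.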

Additional observations from a re-analysis of the deposited data

How the results depend on the processing

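No paired analysis was possible because each population had 1 array. Quantile normalization, median centring, keeping marked spots and the filter on both arrays left every count within 1.5 times and every class, cluster and list median within the spread of replicate spots. The median of all probes was -0.0039, -0.06 without scaling, 0.03 after median centring and 0.01 after quantile normalization, and the histone median was -0.09, -0.15, -0.06 and -0.08. Histone probes below 0 numbered 60, 66, 54 and 58 of 74 in the same order, where scaling and centring shift every ratio by the same amount and leave the distance from all probes as it was.

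The count of probes at least 2-fold higher, which is the HIST1H2AC downstream probe alone, became 0 without scaling, with the authors' series table, without background correction, without rows 450 to 510 and with genes in place of probes, and 2 with no filter on dim probes. The count at least 1.5-fold higher became 1 without background correction and without rows 450 to 510, and 0 with genes. With no filter, the count at least 1.5-fold lower was 1 in place of 0. The cause of the change was not tested for each setting.

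Normexp moved the values most. It set the median of all probes at 0.53 and the histone median at -0.53, with 65 histone probes below 0. The counts at least 1.5-fold higher, 1.5-fold lower and 2-fold higher became 9, 29 and 9. Relative to all genes, the medians became -1.17 over all histones, -1.23 for H1, -1.15 for H2A, -1.13 for H2B, -1.22 for H3, -1.24 for H4, -1.17 for HIST1, -1.23 for HIST2, -1.30 for HIST3 and 0.55 for HIST4. For processing they were -0.88, for chaperones -1.05, for replacement histones -1.11 and for S phase -1.10. With median pixels the counts were 9, 30 and 9, and the medians, in the same order, were -1.17, -1.24, -1.15, -1.13, -1.22, -1.27, -1.17, -1.22, -1.28 and 0.53, then -0.89, -1.03, -1.12 and -1.11. ATRX and H2AFY2 crossed 0, to 0.31 and 0.35 with mean pixels and to 0.33 and 0.33 with median pixels, both under the median of all probes. When spots with a local background marked non-uniform were kept out of the normexp fit, an alternative chosen after seeing the data, the median of all probes was -0.0094 and that of histone probes -0.09, so that most of the move came with those spots, and ATRX and H2AFY2 were at -0.66 and -1.04, with 1 probe past 1.5-fold and 0 past 2-fold on the higher side.

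The 4 downstream probes were dim, with SAS signals of 26.5 to 153 where the lowest signal well above background was 12.8, and the lack of a replicate array limits all values alike.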

Other observations

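Of the 70 genes measured in the processing, chaperone, replacement histone and S phase lists, 5 had a log2 ratio of -0.4 or lower. H2AFY2 (-1.23) lies on chromosome 10. The other 4 lie on the X chromosome and were ATRX (-0.81), POLA1 (-0.80), RBBP7 (-0.57), which encodes a histone-binding protein, and CSTF2 (-0.41), which encodes a cleavage stimulation factor subunit. These were also the only list genes on X. Over all genes, 823 measured probes on X had a median of -0.51, with 84.9% below 0, and 489 on chromosome 13 had a median of -0.32, with 85.5% below 0. The next lowest was chromosome 20, at -0.05 over 695 probes, and the highest of the 22 autosomes was chromosome 7, at 0.03 over 1390. The histone genes lie on none of these, and chromosomes 6, 1 and 12 had medians of 0.0066, 0.0018 and 0.01. The cause was not tested. Positions are those of the array files in hg18.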
